A study of Mus musculus with 4 samples.

Results

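The genes described here are 10 members and regulators of the bone morphogenetic protein (BMP) and Nodal signalling pathways, Id1, Id2, Id3, Bmp4, Inhbb, Nodal, Lefty1, Lefty2, Smad7 and Tdgf1, taken by symbol from the 26130 genes of the deposited tables. They were selected on their differences between knockout and wild type in these same libraries, so their levels and differences are a description and carry no p-values. The data are 4 mRNA libraries of mouse embryonic stem cells, with 1 library for each combination of 2 cell lines and 2 genotypes. E14 is of strain 129P2/OlaHsd and JB1 of strain JF1/B6, and each was sequenced as wild type and as Zfp57-/-, which is without a zinc finger repressor known to keep imprinted loci methylated. All cells grew without feeders on gelatin, in fetal calf serum with leukemia inhibitory factor (LIF). Not stated in the labels are the deleted stretch of Zfp57, whether a knockout line is 1 clone, or how the wild-type and knockout lines of a pair are related.

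BMP ligands bind paired type I and type II receptors, which phosphorylate SMAD1, SMAD5 and SMAD9. With SMAD4 these switch on the Id genes, whose proteins bind basic helix-loop-helix (bHLH) factors and keep them off DNA. Nodal and activins signal through SMAD2 and SMAD3, often with FOXH1, and Nodal needs the coreceptor encoded by Tdgf1. The pathway switches on its own brakes, the secreted Lefty proteins and SMAD7. In mouse embryonic stem cells grown with LIF, BMP signalling through Id genes is known to support self-renewal, and serum is a source of BMP activity.

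The 10 genes took 3 patterns, and promoters of 1 gene of each pattern are shown, from 250 bases before to 50 bases after the annotated start (RefSeq, GRCm38.p6, written 5′ to 3′ on the gene's strand). Id3 was higher in both knockout libraries, Id2 was higher in E14 and lower in JB1, and Bmp4 was lower in E14 and higher in JB1. The RefSeq table matched 6 of the 10 genes, Id1 not among them. Capitals mark CAGAC, a SMAD-binding motif, or GGCGCC, a GC-rich SMAD motif, on either strand (GTCTG for the first, while the second is its own reverse complement). No marked motifs overlap.
Id3, chr4:136143572-136143871, plus strand: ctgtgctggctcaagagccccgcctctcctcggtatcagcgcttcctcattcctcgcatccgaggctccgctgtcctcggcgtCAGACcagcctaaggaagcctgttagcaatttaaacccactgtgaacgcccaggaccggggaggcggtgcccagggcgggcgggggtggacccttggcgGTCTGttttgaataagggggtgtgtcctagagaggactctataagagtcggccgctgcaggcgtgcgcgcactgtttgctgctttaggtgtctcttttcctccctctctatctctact
Id2, chr12:25096043-25096342, minus strand: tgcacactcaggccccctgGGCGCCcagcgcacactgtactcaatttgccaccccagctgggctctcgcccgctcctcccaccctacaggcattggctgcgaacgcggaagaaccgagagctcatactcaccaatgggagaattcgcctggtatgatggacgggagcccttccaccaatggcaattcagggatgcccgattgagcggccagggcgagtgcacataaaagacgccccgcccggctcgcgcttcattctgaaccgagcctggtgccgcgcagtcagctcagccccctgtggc
Bmp4, chr14:46390620-46390919, minus strand: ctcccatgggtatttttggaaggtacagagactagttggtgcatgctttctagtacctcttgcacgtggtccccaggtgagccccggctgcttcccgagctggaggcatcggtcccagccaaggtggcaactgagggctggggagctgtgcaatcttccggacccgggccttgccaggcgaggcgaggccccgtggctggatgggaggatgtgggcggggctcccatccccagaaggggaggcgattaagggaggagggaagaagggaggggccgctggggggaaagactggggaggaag

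The Id3 window held CAGAC 167 bases before the start and its reverse complement 68 bases before it. The Id2 window held GGCGCC 231 bases before the start, and the Bmp4 window held neither motif. Of 32851 promoter windows of this length, 49.6% held CAGAC and 11.9% held GGCGCC on either strand. The FOXH1 motif AATNNACA, on either strand, was in none of the 3 windows and in 12.2% of all. These matches describe the letters in the windows only, and distal elements lie outside them.

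Depth and identity of the libraries were as follows. The listed genes held between 26801865 and 66849394 reads per library, and a level of 1 RPM, a read count scaled to a library total of 1000000, stood for 50.5 to 97.0 reads. The targeted gene Zfp57 was 135 RPM in the E14 wild type and 51.8 RPM in its knockout, and 796 RPM and 42.9 RPM in JB1. The tables give the gene as a whole, so the remaining reads cannot be assigned to the deleted or retained part. Of the 10 stem cell markers, 9 were matched by symbol, while Tfcp2l1 is listed as Tcfcp2l1 and was not matched. These 9 were all at 1 RPM or more in each library. Their sum was 3077 RPM in the E14 wild type and 2840 RPM in its knockout, where 3 of the 9 were higher, and 4375 RPM and 3649 RPM in JB1, where 2 of the 9 were higher. Among these pluripotency factors, picked after their values were seen, Pou5f1 lay between 442 and 940 RPM, while Nanog was 228 RPM in wild type and 137 RPM in the knockout of E14 and 693 RPM and 362 RPM in JB1. The part of these markers in the results below was not tested. Summed levels of the 10 mesoderm markers were 3.27 to 7.35 RPM, and those of 10 fibroblast markers 3.90 to 20.4 RPM, with Dcn at 0 reads in all libraries. The 12 primitive endoderm markers summed to 213 against 237 RPM in E14 and to 314 against 466 RPM in JB1, where 11 of them were higher in the knockout. Sparc made up much of the JB1 sums, at 190 against 307 RPM. Gata4 was the 1 marker lower in JB1, at 6.10 against 2.97 RPM. All 10 mesoderm markers were higher in the JB1 knockout and 8 of them in the E14 knockout, at the low sums given above. In each JB1 library only 1 of the 10 reached 1 RPM, so most of these differences rest on few reads. Among all measured genes 53.5% were higher in the E14 knockout and 51.5% in the JB1 knockout. The 9 trophoblast markers matched by symbol summed to 20.3 against 20.0 RPM in E14 and 45.2 against 56.3 RPM in JB1. In each knockout 7 of these were higher. The 8 neuroectoderm markers matched by symbol summed to 43.7 against 56.5 RPM in E14 and 23.8 against 25.4 RPM in JB1. Of these, 7 were higher in the E14 knockout and 5 in the JB1 knockout. Map2, listed as Mtap2, was not matched. In bulk RNA, fewer cells of a type and less RNA per cell cannot be told apart, which holds for each level given here.

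Differences are log2((knockout RPM + 1)/(wild-type RPM + 1)) within a line, and a gene was measured in a line when it reached 1 RPM in either library. All 10 genes were measured in both lines, and the lowest level of any of them was 1.95 RPM (Lefty1 in the JB1 knockout). In each line 2 of the 10 were higher by 2-fold or more and 1 was lower by as much on this scale. Among all measured genes the shares were 0.953% higher and 0.269% lower in the E14 knockout, and 2.5% higher and 1.58% lower in the JB1 knockout. The median of the 10 was 0.28 in E14 and 0.21 in JB1, against 0.02 and 0.01 over all measured genes. Since the genes were picked with these values known, nothing is read from the excess. Pairs of levels joined by "against" give the wild type first and the knockout second. Folds quoted are ratios of RPM without the added 1, with exact 95% intervals that cover counting error only. For each of the 10 genes these intervals excluded 1 in both lines, as they did for 48.4% of all genes measured in both (58.4% of measured genes in E14 and 78.2% in JB1).

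The direction differed between the lines for 8 of the 10 genes (6 after subtracting the median of the 10 nearest measured genes), against 42% of the 11890 genes measured in both lines. With intervals that excluded 1 in both lines as well, the share of all genes was 18.1%. Bmp4, Inhbb, Smad7 and Tdgf1 were lower in the E14 knockout and higher in the JB1 knockout, as were 19.2% of all genes. Id2, Nodal, Lefty1 and Lefty2 were higher in the E14 knockout and lower in the JB1 knockout, as were 22.7%. Only Id1 and Id3 of the 10 were higher in both, as were 30.6%. With 1 library per group the difference between the lines was not tested.

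**Figure D1:**
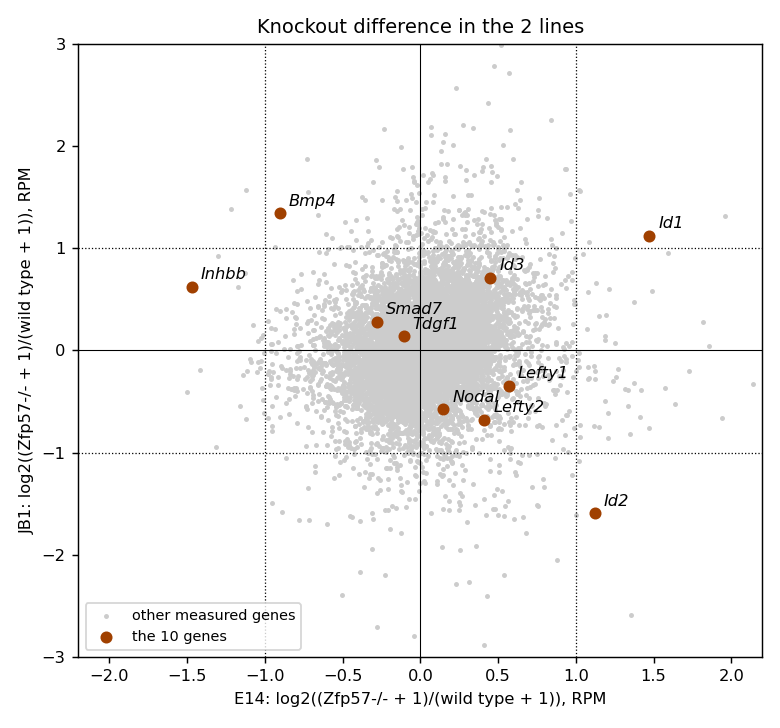
Each point is 1 of 11890 genes measured in both lines, with the E14 difference on the x axis and the JB1 difference on the y axis (log2 of RPM + 1, knockout against wild type); dotted lines mark 2-fold, and 5 genes lie outside the axes. Id1 sits in the upper right corner (1.47 and 1.12) and Id2 in the lower right (1.12 and −1.59), while Bmp4 and Inhbb lie in the upper left.

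Id1 (chromosome 2, 152561987 to 152563146, plus strand, mm9), an inhibitor of bHLH factors and a direct BMP target, was 2.12 RPM in the E14 wild type and 7.65 RPM in its knockout. In JB1 it was 3.32 RPM in wild type against 8.42 RPM in the knockout. Both wild types were low and both knockouts were high. The level was 3.61-fold higher in E14 (95% interval 2.93 to 4.49, from 107 and 541 reads) and 2.53-fold higher in JB1 (2.19 to 2.95, from 230 and 817 reads). Id1 was 1 of 5 genes that were at least 2-fold higher in both lines, 0.0421% of those measured in both. The others, named after their values were seen, were BC051077, Fam25c, Rpl39l and Slc16a3. With 5 RPM added in place of 1, the differences of Id1 became 0.83 in E14 and 0.69 in JB1, under 2-fold.

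By Euclidean distance between pairs of differences in the 2 lines, the genes nearest to Id1 among 7907 candidates at a mean of at least 10 RPM were Lama3, BC051077 and Rpl39l. Lama3, a laminin chain, was 2.06 against 8.25 RPM in E14 and 22.8 against 45.1 RPM in JB1, at a distance of 0.21. BC051077 lay at 0.39 and Rpl39l, a ribosomal protein paralog, at 0.53. The measure rests on 2 differences from 4 libraries.

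Id2 (chromosome 12, 25778666 to 25780957, minus strand, mm9), a further inhibitor of bHLH factors, went opposite ways. It was 12.9 RPM in the E14 wild type and 29.2 RPM in its knockout, and 26.4 RPM in the JB1 wild type and 8.07 RPM in its knockout. The E14 wild type and the JB1 knockout were the low libraries. The E14 knockout was 2.27-fold higher (2.08 to 2.48), with a difference of 1.12, and the JB1 knockout was 3.27-fold lower (3.0 to 3.56), with a difference of −1.59. Id2 was 1 of 6 genes beyond 2-fold in both lines with opposite directions, 0.0505% of the genes measured in both. The other 5, named after their values were seen, were Adam19, Atf5, Hist1h1c, Ntn1 and Ptgs2. With 5 RPM added, the E14 difference became 0.94.

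Id3 (chromosome 4, 135699412 to 135701670, plus strand, mm9), the remaining bHLH inhibitor of the 10, was 2.16 RPM in the E14 wild type and 3.31 RPM in its knockout, 1.53-fold higher (1.22 to 1.94). In JB1 it was 17.2 RPM in wild type against 28.7 RPM in the knockout, 1.68-fold higher (1.56 to 1.79). It stayed under 2-fold in both lines, and both JB1 libraries lay above both E14 libraries. The tables were scaled separately, so levels set across lines are placed side by side only. The listed genes held 53.1% and 53.7% of the scaling totals in E14, wild type and knockout, but 68.6% and 68.9% in JB1.

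Per length, using exons of GENCODE M21 transcripts that match the span of the gene in the tables, the 3 Id genes together came to 10.9 RPM per kb in E14 wild type and 26.0 in the E14 knockout. In JB1 the sum was 31.5 RPM per kb in wild type and 34.4 in the knockout, but without scaling to length its direction was the other, at 46.9 against 45.2 RPM. Within the JB1 sum, Id2 made up 48.2% of it in wild type and 13.5% in the knockout, and Id3 made up 42.7% and 65.4%. In E14, Id2 made up 67.8% and 64.6%, and Id1 16.7% and 25.4%. Id2 was the highest of the 3 in both E14 libraries, and Id3 was the highest in the JB1 knockout.

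**Figure D2:**
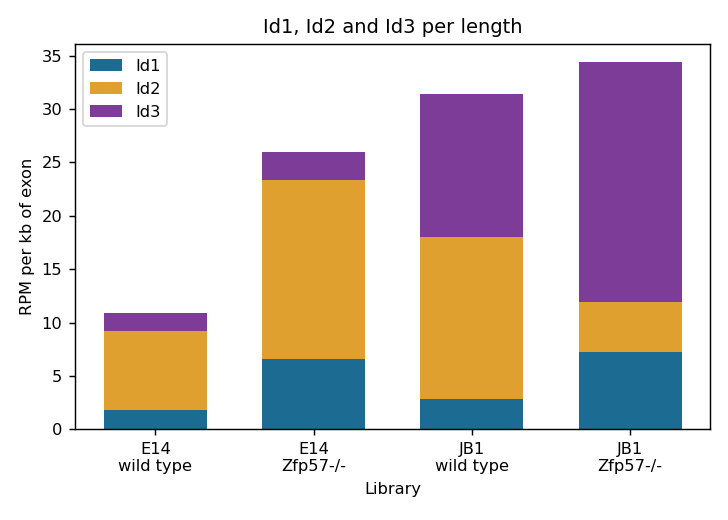
Stacked bars give the levels of Id1, Id2 and Id3 in RPM per kb of exon in each of the 4 libraries (no replicates, so no error bars). The sum is 10.9 (wild type) and 26.0 (knockout) in E14 and 31.5 and 34.4 in JB1, where the Id2 share is 48.2% in wild type and 13.5% in the knockout.

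Bmp4, the BMP ligand upstream of Id genes, was 10.1 RPM in the E14 wild type and 4.95 RPM in its knockout. In JB1 it was 18.5 RPM in wild type against 48.7 RPM in the knockout, the highest of the 4 libraries. The E14 knockout was 2.05-fold lower (1.78 to 2.35), with a difference of −0.90 (−1.02 with 0.1 RPM added, past 2-fold), and the JB1 knockout 2.63-fold higher (2.47 to 2.80), with a difference of 1.35. In JB1 the summed primitive endoderm, mesoderm, neuroectoderm, trophoblast and fibroblast markers were all higher in the knockout, while the summed stem cell markers were lower. The part of these markers in the Bmp4 level was not tested. Bmp4 and Id1 were both higher in the JB1 knockout, whereas in E14 Bmp4 was lower and Id1 higher.

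Bmp4 (chromosome 14, 47003195 to 47010344, minus strand, mm9) lies in a stretch of that chromosome, 41 to 77 Mb, where 215 of 230 other measured genes were lower in the E14 knockout. The median of these genes was −0.63, against 0.03 elsewhere. Less this median, the Bmp4 difference in E14 was −0.28, and 15.2% of the genes of the stretch were lower still. In JB1 the median of the stretch was −0.01, and Bmp4 lay above 98.8% of it. The 10 nearest measured genes of Bmp4 had a median of −0.62 in E14 and −0.25 in JB1. The stretch was chosen after its values were seen. The annotation also lists Gm15217 and Gm15222 over Bmp4 on the opposite strand, each at 0.237 RPM or less in every library. Whether strand was used in counting is not given in the sources used here.

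Inhbb encodes the beta B subunit of activin and inhibin. Its 2 lines went opposite ways, with 19.3 against 6.31 RPM in E14 and 40.0 against 62.2 RPM in JB1. The E14 knockout was 3.05-fold lower (2.73 to 3.42), and its difference of −1.47 was below that of 99.97% of the measured genes. The JB1 knockout was 1.55-fold higher (1.49 to 1.63), under 2-fold on the log2 scale at 0.62. Inhbb lies on chromosome 1 (121312042 to 121318825, minus strand, mm9), and its 10 nearest measured genes had medians of 0.01 in E14 and −0.02 in JB1.

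Nodal (chromosome 10, 60880720 to 60888086, plus strand, mm9), the ligand of its pathway, was 59.0 RPM in the E14 wild type and 65.5 RPM in its knockout, 1.11-fold higher (1.06 to 1.16). In JB1 it was 66.9 RPM in wild type against 44.7 RPM in the knockout, 1.5-fold lower (1.44 to 1.56). Less the median of the 10 nearest measured genes, its difference moved from 0.15 to 0.01 in E14 and from −0.57 to −0.83 in JB1. On the deposited scale the JB1 knockout was the low library, and the other 3 lay within 59.0 to 66.9 RPM. How close levels of the 2 lines lie depends on the scaling totals. Tdgf1 (chromosome 9, 110842114 to 110848662, minus strand, mm9), which encodes the coreceptor Cripto, had the highest level of the 10 genes in every library, per length too, at 432 against 400 RPM in E14 and 609 against 671 RPM in JB1. It was 1.08-fold lower in E14 (1.06 to 1.10) and 1.10-fold higher in JB1 (1.09 to 1.12), the smallest differences of the 10 in both lines. RefSeq lists the pseudogenes Tdgf1-ps1 and Tdgf1-ps2, and how reads shared with them were counted is not given in the sources used here. Less the median of its 10 nearest measured genes, the JB1 difference of Tdgf1 turned from 0.14 to −0.19. Its promoter window held AATNNACA 127 and 101 bases before the start and CAGAC 113 bases before it, while the windows of Nodal and Inhbb held none of the 3 motifs.

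Lefty1 and Lefty2, secreted inhibitors of Nodal, are neighbours on distal chromosome 1. Lefty1 (182865153 to 182868531, plus strand, mm9) was 3.39 against 5.50 RPM in E14 and 2.75 against 1.95 RPM in JB1. Lefty2 (182823239 to 182829234, plus strand, mm9) was 2.32 against 3.41 RPM in E14 and 6.49 against 3.68 RPM in JB1. Both were higher in the E14 knockout, by 1.62-fold (1.35 to 1.96) and 1.47-fold (1.17 to 1.85). Both were lower in the JB1 knockout, by 1.41-fold (1.15 to 1.73) and 1.76-fold (1.53 to 2.03). The genes share sequence, with 17.9% of the windows of 50 bases of the Lefty1 transcript also found in Lefty2, so reads may be split between them. Summed, the pair was 5.71 against 8.91 RPM in E14, 1.56-fold higher (1.36 to 1.8), and 9.23 against 5.63 RPM in JB1, 1.64-fold lower (1.46 to 1.84).

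In JB1, chromosome 1 beyond 140 Mb was lower as a whole in the knockout. Of its 244 other measured genes 191 were lower, with a median of −0.32 against 0.02 elsewhere. Less this median, Lefty1 differed by −0.03 and Lefty2 by −0.36. Their 10 nearest measured genes had lower medians still, −0.68 and −0.62, and against these Lefty1 turned to 0.34 and Lefty2 became −0.06. In E14 the median of the stretch was 0.01, and Lefty1 and Lefty2 lay above 95.3% and 89.3% of it. This stretch too was chosen after its values were seen.

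**Figure D3:**
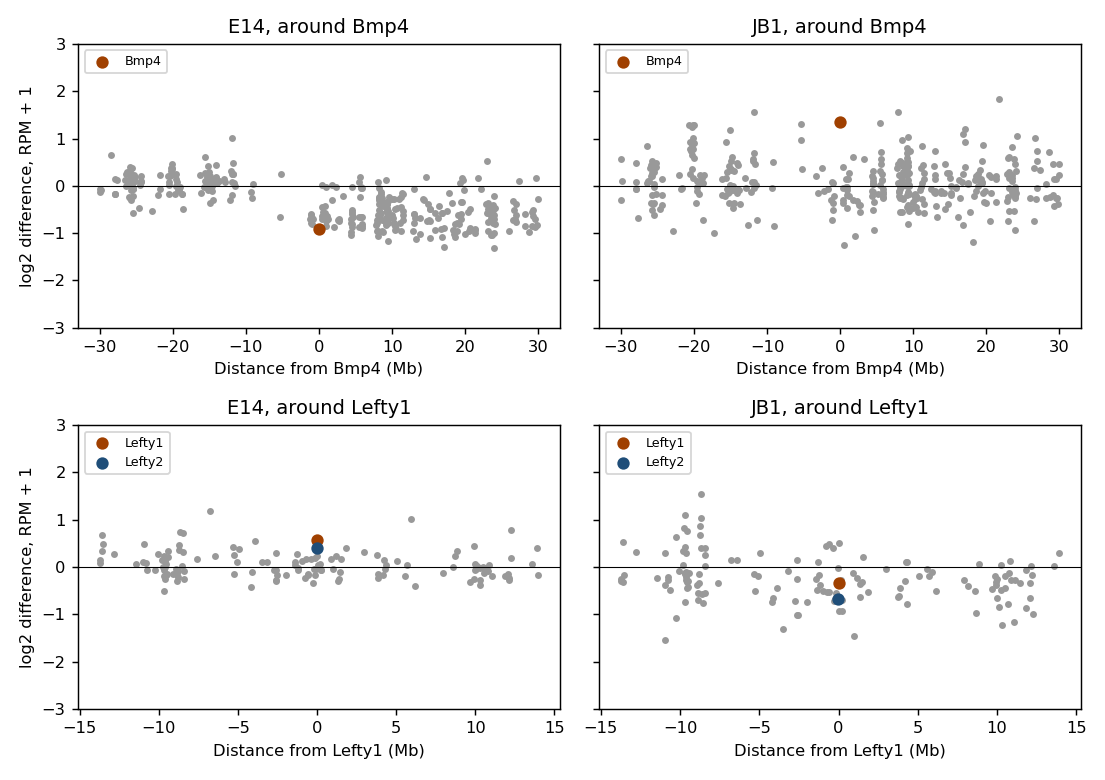
Grey points are other measured genes placed by distance in Mb from Bmp4 (top) and Lefty1 (bottom), with the log2 difference on the y axis for E14 (left) and JB1 (right); 1 gene lies outside the axes in the JB1 panel around Bmp4. In E14, Bmp4 (−0.90) lies among lowered neighbours with a median of −0.63 over the stretch, whereas in JB1 it stands above them at 1.35.

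Smad7, an inhibitory SMAD and a target of both pathways, was 24.1 against 19.7 RPM in E14 and 39.9 against 48.7 RPM in JB1. It was 1.23-fold lower in E14 (1.14 to 1.33) and 1.22-fold higher in JB1 (1.16 to 1.28). Within each line its libraries lay close together, with differences of −0.28 and 0.28.

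**Figure D4:**
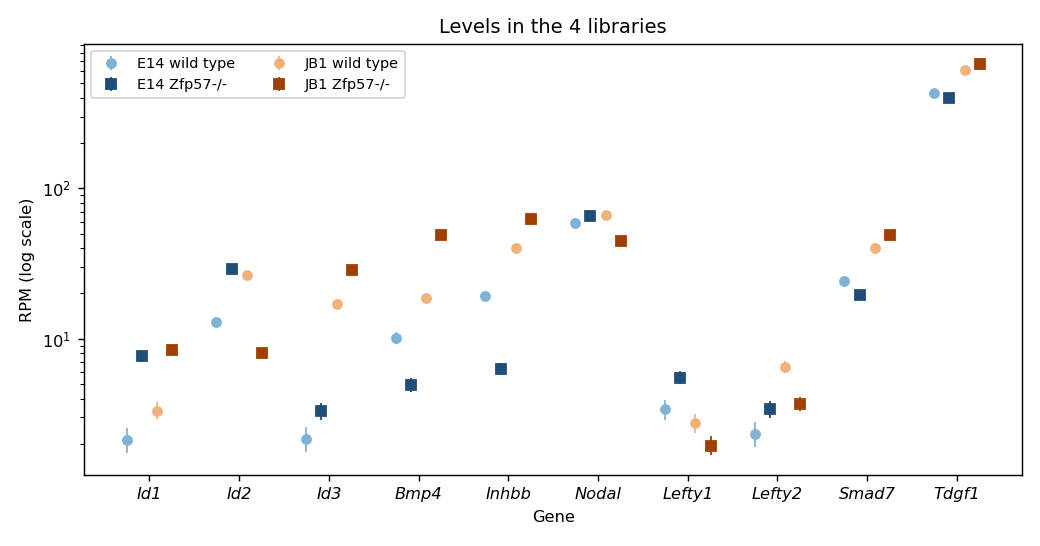
Points give the level of each of the 10 genes in RPM on a log axis in the 4 libraries, with exact 95% Poisson intervals that cover counting error only. Tdgf1 is the highest gene in all libraries (400 to 671 RPM), and for Id1 the 2 knockouts lie above the 2 wild types.

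Compared per length, the order below Tdgf1 differed among the libraries. Nodal came next in both E14 libraries and in JB1 wild type, at 28.2, 31.2 and 31.96 RPM per kb. In the JB1 knockout Bmp4 (23.6 RPM per kb), Id3 (22.5) and Nodal (21.3) followed Tdgf1 (347), and neighbours among these 3 had overlapping counting intervals. Smad7, Bmp4 and Inhbb were adjacent in E14 wild type, from 5.51 to 4.53 RPM per kb. Intervals of adjacent pairs overlapped there, but those of Smad7 (5.20 to 5.83) and Inhbb (4.25 to 4.82) did not. In JB1 wild type the 3 genes were again adjacent, from 9.41 to 8.98, with overlapping intervals. In the E14 knockout they were apart, at 4.49, 2.40 and 1.48 RPM per kb. Lefty2 was the lowest of the 10 in the E14 wild type and Lefty1 in the JB1 wild type. In the knockouts the lowest neighbours, Inhbb and Lefty2 in E14 and Lefty2 and Lefty1 in JB1, had overlapping intervals.

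The rest of the pathway was read from 7 lists by role, with 109 genes of which 107 were matched by symbol in the tables. In E14, 55 were measured and none was at least 2-fold different, against 1.22% of all measured genes. Their median was 0.03, against 0.02 over all measured genes. In JB1, 63 were measured, with a median of −0.04 against 0.01 over all. On the log2(RPM + 1) scale, 1 of these was at least 2-fold higher and 2 were at least 2-fold lower, against 2.5% and 1.58% of all measured genes. Those 3 were Dusp9, Klf4 and Inhbe. Dusp9, a phosphatase of ERK and a BMP target in mouse stem cells, was 39.4 against 147 RPM in JB1, 3.73-fold higher (3.58 to 3.89), and 54.6 against 73.5 RPM in E14, 1.35-fold higher. Klf4, a pluripotency factor, was 410 against 164 RPM in JB1, lower by a factor of 2.5 (2.45 to 2.55), and 156 against 143 RPM in E14. Inhbe, an activin subunit, was 4.12 against 0.835 RPM in JB1, 4.93-fold lower (3.84 to 6.39), and 1.45 against 1.91 RPM in E14.

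Among ligands, Gdf3, a Nodal-related factor, was lower in both knockouts, 72.2 against 53.2 RPM in E14 and 83.2 against 57.1 RPM in JB1. Gdf11 was 1.17 against 1.87 RPM in E14 and 1.73 against 3.70 RPM in JB1. Few BMP-side ligands were measured, 3 of 13 in each line, and Bmp7 was 0.991 against 1.09 RPM in E14 and 1.85 against 3.61 RPM in JB1. Bmp8b stayed between 0.792 and 1.73 RPM. The measured receptors and coreceptors had medians of −0.03 in E14 (11 genes) and 0.05 in JB1 (14 genes). Bmpr1a, a type I BMP receptor, was 56.7 against 67.3 RPM in E14 and 60.6 against 58.3 RPM in JB1. Tgfbr1, a type I receptor for TGF-beta, was 60.4 against 64.2 RPM in E14 and 61.7 against 42.0 RPM in JB1.

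The SMADs and their nuclear partners lay between −0.41 and 0.24 in E14 (13 genes) and between −0.88 and 0.62 in JB1 (14 genes). Tgif1, a corepressor of SMADs, was 81.3 against 60.8 RPM in E14 and 167 against 90.0 RPM in JB1, and Trim33 was 95.3 against 98.7 RPM and 115 against 95.9 RPM. Of inhibitors and processing enzymes, 6 of 11 were higher in E14 and 4 of 13 in JB1. Fstl1, a follistatin-like protein, was 53.6 against 46.8 RPM in E14 and 72.2 against 41.7 RPM in JB1, and Pcsk6, a protease that processes Nodal, was 30.7 against 24.4 RPM and 51.0 against 52.1 RPM. In the list of BMP targets and bHLH partners, Tbx3 was 107 against 108 RPM in E14 and 298 against 287 RPM in JB1. Few Nodal and activin targets were measured, 2 of 11 in E14 and 3 in JB1, all higher in the knockout (medians 0.38 and 0.61). Among them, Eomes, a T-box factor of early mesoderm and endoderm, was at 1.15 against 1.70 RPM in E14 and 3.35 against 4.08 RPM in JB1. In the E14 knockout 53.5% of all measured genes were higher, and 51.5% in JB1.

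**Figure D5:**
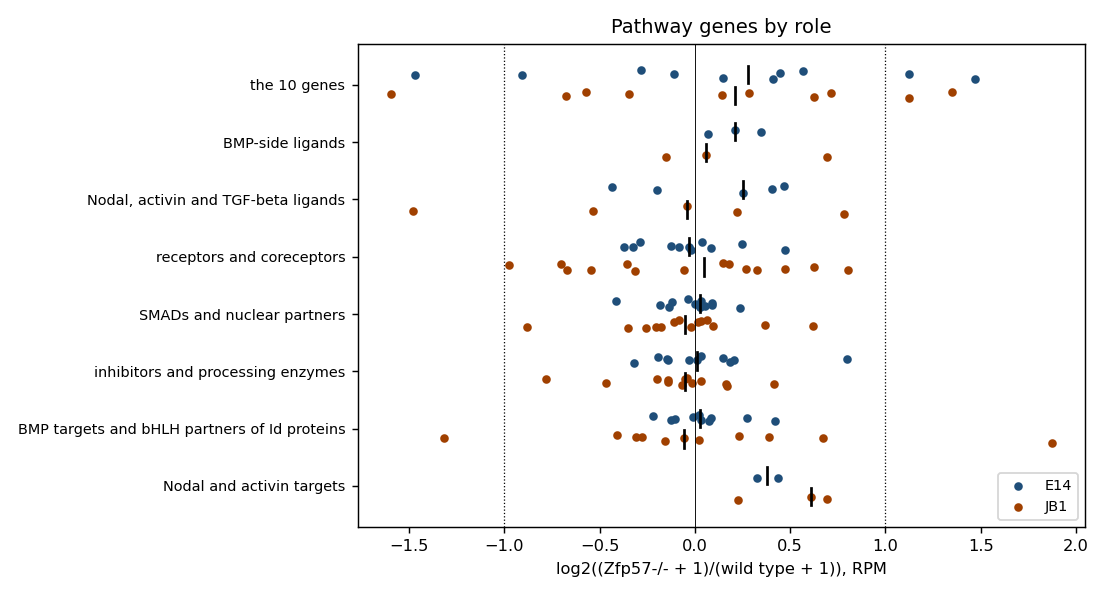
Points are measured genes in each role list and the 10 genes at the top, by log2 difference in E14 (blue) and JB1 (orange-brown), with black bars at the medians and dotted lines at 2-fold. The 10 genes spread from −1.47 to 1.47 in E14 and from −1.59 to 1.35 in JB1. They were picked on these differences, so nothing is read from their spread against the lists. No listed pathway gene is beyond 2-fold in E14, where 1.22% of all measured genes were.

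The effect shared by both lines was fitted with limma on log2(RPM + 1), with line and genotype as terms and the 2 lines as the only replicates. None of 12644 genes was called at the 0.05 threshold after Benjamini-Hochberg adjustment (0% of genes, smallest adjusted p 0.623 by limma), and 1005 had an unadjusted p below 0.05. Of the 58 pathway genes tested, 0 were called and 9 had an unadjusted p below 0.05. The lists were chosen with earlier results of these data known, so nothing is read from these 9. The targeted gene Zfp57 was not called either, though it was 2.60-fold lower in E14 and 18.5-fold lower in JB1. With so few replicates, the lack of calls does not show that shared effects are absent. Averaged over the lines, the fitted difference of Id1 was 1.30 and that of Id3 0.58. These genes were picked on such differences, so the averages are a description and were not tested. For Id2 the average was −0.24 and for Bmp4 0.22, since their lines pointed opposite ways.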

How the data were processed

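The authors deposited log2 values of RPM for each gene, 1 table per line. Per the submitters' processing notes, the tools were TopHat2 2.0.8b, CASAVA 1.8.2 and cutadapt, and the build mm9. The kit was stranded and mRNA-selecting, per the labels' protocols. The annotation, the counting tool, its strand setting and its treatment of shared reads were not stated in those sources. With the lowest value of a library taken to stand for 0.9 read, 100% of the values above it were whole reads (relative tolerance 0.0001), so reads were recovered, and genes at the lowest value were taken as 0 reads. The totals ranged from 50478922 to 96996280 reads.

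From these values, RPM, differences with 1 RPM added, exact binomial (Clopper-Pearson) intervals of ratios and limma 3.58.1 fits (R 4.3.3; trend, mean of at least 1 RPM) were computed, with Python 3.11.15 and scipy 1.17.1. The fit was tested on simulated counts in which each changed gene moved equally in both lines. The lines differ more in these data, so that test does not show how the fit performs here. A floor of 3 reads is 0.0309 to 0.0594 RPM. Intervals cover counting error only, since PCR copies were not told apart by molecular identifiers. Coordinates are mm9 as deposited. Promoters are RefSeq GRCm38.p6, and exon lengths GENCODE M21.

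The members and lists were chosen with earlier results of these data known. Genes named in the lists are the 2 with the most reads per list and those beyond 2-fold in either line. The 2-fold rule used differences with 1 RPM added. The 3 genes nearest to Id1 are also named, and exceptions are stated. Of the genes this rule names, 1 is not reported here. A count model had been planned for the case of raw counts. The files hold log2 values and limma was used, and no count model was run on the recovered reads.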

Additional observations from a re-analysis of the deposited data

Results flagged for a closer look

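Of 26 named genes examined, 9 had opposite directions in the 2 lines with counting intervals of the ratio that excluded 1 in each, and 8 of these were among the 10 BMP, Nodal and Id genes. Of all 11890 genes measured in both lines 18.1% met the same condition, and the 10 genes were picked on these differences. With 1 library per group the difference between lines was not tested. The JB1 difference minus the E14 difference (log2 of RPM + 1) was −2.72 for Id2, 2.25 for Bmp4 and 2.09 for Inhbb. It was −1.09 for Lefty2, −0.91 for Lefty1, −0.72 for Nodal, 0.56 for Smad7 and 0.25 for Tdgf1. The remaining gene was Tgfbr1, the TGF-beta type I receptor, at −0.63.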

How the results depend on the processing

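Of 108 values of single genes under alternatives, 106 kept their sign. The exceptions were Lefty1 (0.34) and Tdgf1 (−0.19) in JB1, both after subtracting the median of the 10 nearest measured genes, an alternative chosen after seeing the data. The count of genes with opposite directions was 8 under the other alternatives and 6 after that subtraction. Much of this was fixed in advance, since a change of pseudocount cannot turn a sign. Centring subtracted medians of 0.02 in E14 and 0.01 in JB1, smaller in size than the difference of any of the 10 genes. Scaling by listed-gene reads left the ratios within a line nearly unchanged. Those reads were 53.1% and 53.7% of the totals in E14 and 68.6% and 68.9% in JB1. With 0.1 RPM added, 2 of the 10 genes were at least 2-fold lower in E14. With 5 RPM added, 0 of the 10 were at least 2-fold higher in E14 and 1 in JB1. Over the pathway lists, the JB1 counts were 4 higher with 0.1 RPM added, 1 lower with 5 RPM added and 1 lower among genes at 5 RPM or more, and a threshold of 1.5-fold gave 9 higher and 7 lower in JB1 and 1 higher in E14. Over all genes, at least 2-fold higher and lower counts were 268 and 77 in E14 and 656 and 360 in JB1 with 0.1 RPM added, and 44 and 6 in E14 and 111 and 83 in JB1 with 5 RPM added. Scaling by listed-gene reads gave 176 and 54 in E14, and a threshold of 1.5-fold gave 468 and 279 in E14 and 1301 and 856 in JB1. A lower pseudocount or threshold admits more genes by construction. Scaling by listed-gene reads acts alike, since it raises every RPM value, and the added 1 RPM and the 1 RPM filter then weigh less. The limma fit called 0 genes under each of its alternatives, with a smallest adjusted p between 0.563 and 0.667 and 799 to 1688 unadjusted p below 0.05. With only the 2 lines as replicates, these counts do not show that shared effects are absent. The limma fit, with line as a term, is itself paired by line, and the labels give no replicate numbers for another pairing. Depth limits Id1, Id3, Lefty1 and Lefty2 most, with 107 to 171 reads in their shallowest libraries.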

Other observations

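Some genes at the edge of their role list, under 2-fold on the log2(RPM + 1) scale, were looked up after their values were seen. Fst, which encodes follistatin, a binder of activins, had the highest difference of the lists in E14, at 6.28 RPM (wild type) against 11.6 RPM (knockout), a ratio of 1.85 with a 95% interval of 1.63 to 2.12. In JB1 it was 6.70 against 5.71 RPM. Rgmb, a BMP coreceptor, was the lowest receptor-side gene in JB1, at 10.5 against 4.86 RPM, with a difference of −0.98. As a ratio of RPM it was 2.17-fold lower (1.93 to 2.44). In E14, Rgmb was 7.55 against 5.81 RPM. Smad6, an inhibitory SMAD on the BMP side, was 0.436 against 0.622 RPM in E14 and 4.36 against 6.17 RPM in JB1.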
